A study of Homo sapiens with 20 samples.

Results

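The SR and hnRNP splicing factor genes were taken as every gene whose symbol is SRSF or HNRNP followed by its number or letters, leaving out symbols that end in P and a number, which mark pseudogenes. The rule used no measured value, though the members were chosen with earlier results of these data known. It found 37 genes, 12 SRSF and 25 HNRNP, of 58288 genes in the count tables. Their polyadenylated RNA was counted by RNA-seq in 20 libraries from 2 human lymphoma lines, both labelled as diffuse large B-cell lymphoma, DOHH2 and U2932. Cells had received either a compound labelled TK, whose identity the labels do not give, or DMSO, the solvent used as control, for 8 or 18 h. DOHH2 had 3 libraries with DMSO at 8 h, 3 with TK at 8 h, 2 with DMSO at 18 h and 3 with TK at 18 h. U2932 had 3 with DMSO at 8 h, 2 with TK at 8 h, 1 with DMSO at 18 h and 3 with TK at 18 h. Each line is a single established cell line, no dose of TK is given, and nothing in the labels says whether replicates came from separate cultures, so p-values measure the spread between these libraries only, which may be technical.

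SR proteins carry RNA recognition motifs and a tail of arginine and serine repeats. They bind exonic enhancers and recruit U1 and U2AF to nearby splice sites, which favours inclusion of the exon. Kinases of the SRPK and CLK families phosphorylate the tail and so set where the proteins reside and how they act. The hnRNP proteins coat nascent transcripts, and many of them bind silencers and oppose SR proteins, so that the balance between both sets steers alternative exons. Many of the genes limit their own protein by splicing in an exon with an early stop codon, which sends the transcript to nonsense-mediated decay. In lymphocytes the best known case is hnRNP L and its relative hnRNP LL, which act on the variable exons of PTPRC, the gene of CD45. hnRNP LL also acts on immunoglobulin heavy chain transcripts when B cells become plasma cells.

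Sequence before the RefSeq start of 3 members is shown because HNRNPLL, HNRNPL and HNRNPD were all higher at 18 h than at 8 h in the comparison over time given further down. The bases come from RefSeq (GRCh38.p14), are written 5′ to 3′ on the gene's strand, which is the minus strand for each, and lie before the first start site in that table. Any stretch that GENCODE v29 places in an untranslated region was left off, which took all of this region for HNRNPA2B1, another member that was higher at 18 h. For HNRNPA3 and HNRNPDL, also higher, it left runs of at most 19 and 67 bases, too short to show. HNRNPH1, which was lower at 18 h, has several starts in that table and is not shown. None of the motifs marked below occurs from 250 bases before to 50 after its first start. HNRNPLL is shown at chr2:38603037-38603178, which ends 109 bases before the start, HNRNPL at chr19:38852348-38852597 and HNRNPD at chr4:82373992-82374118, the last 2 ending at the base before the start. GENCODE v29 starts some transcripts further out, so the HNRNPLL and HNRNPD stretches lie inside its gene bodies (chr2:38561978-38603586 and chr4:82352498-82374503). They are intronic there, apart from 11 bases of HNRNPLL in an exon of a transcript with no coding sequence, and the HNRNPL stretch lies outside the gene. Capitals mark 4 motifs on either strand, and matches of different motifs do not overlap in these stretches: the CCAAT box (CCAAT), the GC box (GGGCGG), an ETS site (CCGGAAG) and the TATA box (TATAAA).
HNRNPLL: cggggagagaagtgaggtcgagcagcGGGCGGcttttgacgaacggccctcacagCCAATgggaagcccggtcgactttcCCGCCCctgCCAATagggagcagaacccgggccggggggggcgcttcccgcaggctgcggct
HNRNPL: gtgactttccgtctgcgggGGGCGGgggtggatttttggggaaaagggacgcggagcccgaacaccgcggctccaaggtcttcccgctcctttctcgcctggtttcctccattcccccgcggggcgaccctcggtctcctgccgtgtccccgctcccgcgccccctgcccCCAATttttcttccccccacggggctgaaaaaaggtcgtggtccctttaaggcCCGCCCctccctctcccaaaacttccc
HNRNPD: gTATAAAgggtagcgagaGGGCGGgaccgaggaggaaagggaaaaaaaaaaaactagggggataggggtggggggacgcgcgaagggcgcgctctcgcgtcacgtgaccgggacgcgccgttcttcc
The HNRNPLL stretch held 2 GC boxes and 2 CCAAT boxes, and the HNRNPL stretch 2 GC boxes and 1 CCAAT box, 80 bases before the start. The HNRNPD stretch held 1 GC box, 109 bases before the start, and 1 TATA box, 126 bases before it. RefSeq gave a window from 250 bases before to 50 after the start for 30 of the 32 members that passed the filter on low counts. A CCAAT box was present in 15 of these (50% against 35.7% of the 27305 windows of this length in the table), a GC box in 20 (66.7% against 44.6%), an ETS site in 5 (16.7% against 10.7%) and a TATA box in 5 (16.7% against 12.0%). The members' windows had a median G+C content of 63.8%, against 58.3% over all windows, and a median of 30 CpG dinucleotides, against 14. The 27305 windows were not limited to genes that passed the filter on low counts, and were not matched to the members on G+C content. A match is a run of letters and was not tested as a site.

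Counts in genes ranged from 30363255 to 52275430 per library, with a median of 34671988. The first TK replicate of DOHH2 at 18 h stood apart, with 56.6% of its reads not aligned uniquely, against 20.7% to 34.3% in the other libraries. In it 7 of 11 SRSF genes lay below both other replicates, among them SRSF10 at 194 against 290 and 306 CPM (counts scaled to a library of fixed size), and 2 above. Of the 21 HNRNP genes 5 lay below and 12 above, where 41.8% of all genes lay below and 43.6% above. The first TK replicate of DOHH2 at 8 h had 3.29% of its gene counts on mitochondrial genes, against 5.06% to 8.08% elsewhere, with 8 of 11 SRSF genes below both other replicates and 2 above, and 3 of 21 HNRNP genes below and 11 above, where 37.1% of all genes lay below and 35.1% above. B-cell markers were present in both lines (6 of 6 above a median of 5 CPM), T-cell and myeloid markers were not (0 of 4 each), and the exceptions among epithelial and fibroblast markers were EPCAM in U2932 (median 26.7 CPM) and COL1A1 in DOHH2 (10.3). DOHH2 is usually classed as the germinal-centre type and U2932 as the activated type. The libraries labelled DOHH2 held the germinal-centre factor BCL6 at 0 to 0.358 CPM and those labelled U2932 at 330 to 409, while IRF4, of the activated type, was at 674 to 962 and 326 to 420 CPM, which goes against these classes. Line names below are therefore those of the labels.

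Of the 37 members, 32 passed the filter (at least 10 counts of a median library, or 0.288 CPM, in 3 or more libraries), 11 SRSF and 21 HNRNP. SRSF12 did not, with 95 counts over the 20 libraries and 0 to 0.336 CPM. HNRNPCL1, HNRNPCL2, HNRNPCL3 and HNRNPCL4, copies related to HNRNPC, had 0 counts in every library, where 3 counts, the limit that a count of 0 allows, correspond to 0.0574 to 0.0988 CPM.

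Levels are compared between genes as CPM per kb of the median coding transcript, averaged over the 8 groups. On this scale HNRNPA1, which binds exonic and intronic silencers, was the highest of all members at 1083. HNRNPC, which binds uridine tracts, followed at 612, and HNRNPA2B1, an A/B type hnRNP like HNRNPA1, at 470. Among the SR genes SRSF1, the founding member of the family, led at 335, then SRSF2 at 239 and SRSF5 at 215. The order depends on the length used, since over the full exon length the leading genes were HNRNPA1, HNRNPAB and HNRNPK in 1 set and SRSF2, SRSF1 and SRSF7 in the other. The lowest that passed the filter were HNRNPA1L2 (9.63), SRSF8 (9.75) and HNRNPLL (10.6), the first 2 of which are retrogene-like copies of other members.

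**Figure D1:**
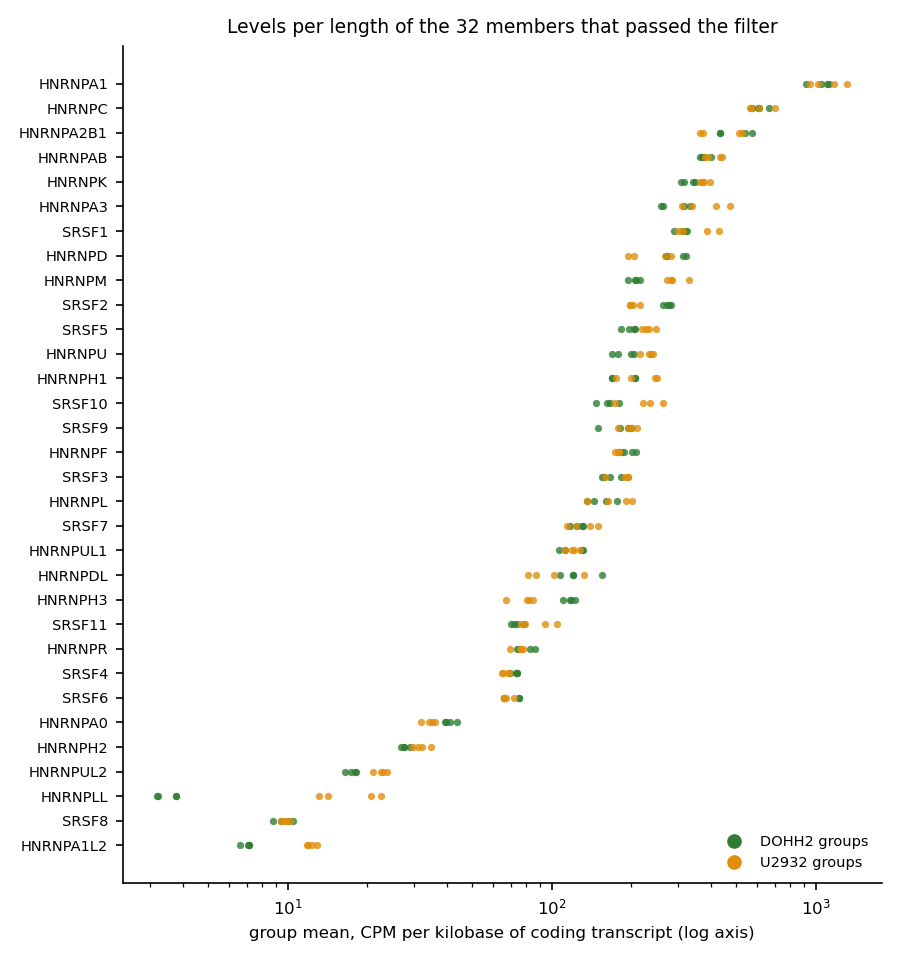
Level of each member that passed the filter, in CPM per kb of the median coding transcript on a log axis, with a point for each of the 8 groups and a colour for each cell line. HNRNPA1 stood highest at a mean of 1083 and HNRNPLL, at 10.6, had the widest gap between the lines.

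Both sets together took 1.24% to 1.68% of the gene counts, the SRSF genes 0.266% to 0.393% and the HNRNP genes 0.942% to 1.33%. The HNRNP sum was 3.01 to 4.59 times the SRSF sum, the highest ratio being that of the first TK replicate of DOHH2 at 18 h. HNRNPA1 and HNRNPA2B1 alone gave 25.9% to 33.7% of the HNRNP counts. The per-library levels of HNRNPA1 ran from 1436 to 2464 CPM with a median of 1744, those of HNRNPC from 871 to 1169 with a median of 967, and those of SRSF1 from 349 to 663 with a median of 454. SRSF2 ran from 346 to 570 CPM with a median of 443, and SRSF5 from 244 to 366 with a median of 299. None of these 5 genes was near the filter on low counts in any library.

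Some counts cannot be assigned to 1 gene with certainty, because exons overlap other genes and no source used here says whether counting used the strand. The strand would not separate overlaps on the same strand, which HNRNPUL2, HNRNPH2 and, in part, SRSF1 have. Exons of SRSF1 overlapped other genes over 60.7% of their length, those of SRSF9 over 46.2% (GATC, antisense), HNRNPUL2 44.1% (a read-through gene with BSCL2), SRSF2 36.7% (MFSD11, antisense), HNRNPH2 16.3% and HNRNPU 15.6% (COX20). The 124 pseudogene rows of both families held 0.101% to 0.166% of the joint counts of members and pseudogenes, 75 of them copies of HNRNPA1 with 0.465% to 0.894% of the counts they share with it. HNRNPA1L2 is nearly identical to HNRNPA1, so its value is uncertain.

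The first question was whether TK changed the RNA of these genes. No member passed the test against DMSO in either line at either time (edgeR quasi-likelihood test, Benjamini-Hochberg adjusted p under 0.05 over 16478 genes), and few genes of any kind did. In DOHH2 at 8 h 0 of 32 members were called, where 0.0% of all genes were, with 1 member at an unadjusted p under 0.05 and 0 called by DESeq2. In DOHH2 at 18 h 0 were called, where 0.0728% of all genes were, with 2 at an unadjusted p under 0.05 and 0 by DESeq2. In U2932 at 8 h 0 were called (0.0% of all genes), with 1 and 0, and at 18 h 0 (0.0182% of all genes), with 2 and 0. The median log2 change of the members lay between -0.04 and 0.05 in these comparisons. At 18 h U2932 has a single DMSO library, whose spread is assumed to be that of the other groups. In bulk RNA, a change in all cells and a change in the share of cells that hold the transcript cannot be told apart.

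HNRNPDL, a relative of HNRNPD that binds AU-rich RNA and restrains its own transcript through splicing, had the smallest p over both lines and times. In DOHH2 at 18 h it stood at 479 and 482 CPM with DMSO and at 309, 421 and 389 with TK. In U2932 at 18 h it stood at 409 CPM with DMSO and at 291, 349 and 305 with TK. At 18 h every TK library was thus below every DMSO library of its line, with 2 DMSO libraries in DOHH2 and 1 in U2932. HNRNPDL was named for its p in these same libraries. The share of all genes whose TK and DMSO libraries separate so was not counted, here or for the members that follow. At 8 h DOHH2 had 389, 350 and 381 CPM with DMSO and 364, 287 and 349 with TK, and U2932 276, 275 and 259 against 247 and 254. These groups overlapped in DOHH2 and did not in U2932. The log2 change averaged over the 4 pairs of groups was -0.25 (SE 0.07, 95% interval -0.40 to -0.11), with an edgeR adjusted p of 0.171, and 0.0243% of all genes were called in this average. DESeq2 gave -0.25 with an adjusted p of 0.0325 for HNRNPDL, and edgeR without the first TK replicate of DOHH2 at both times gave -0.24 with 0.0367, each the 1 member called in that setting. Set against the 8 h and 18 h DMSO libraries jointly, the U2932 value at 18 h turned from -0.38 to 0.07.

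SRSF9, a small SR protein, was at 233 and 234 CPM with DMSO and at 181, 170 and 188 with TK in DOHH2 at 18 h. The groups did not overlap, and the log2 change was -0.38 (SE 0.13, edgeR adjusted p 0.349). In U2932 at 18 h SRSF9 was at 243 CPM with DMSO and at 241, 268 and 252 with TK, so the DMSO library lay within the TK range. HNRNPL, which binds CA repeats, was at 289, 265 and 286 CPM with DMSO and at 344 and 329 with TK in U2932 at 8 h, a log2 change of 0.27 (SE 0.11, edgeR adjusted p 1). These groups did not overlap, whereas in DOHH2 at 8 h HNRNPL was at 287, 264 and 285 against 309, 300 and 278, which overlapped. HNRNPC had a log2 change of 0.21 (SE 0.10) in DOHH2 at 8 h, and HNRNPH3, of the G-tract binding group, 0.34 (SE 0.14) in U2932 at 18 h, where the adjusted p was 0.622 by edgeR.

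**Figure D2:**
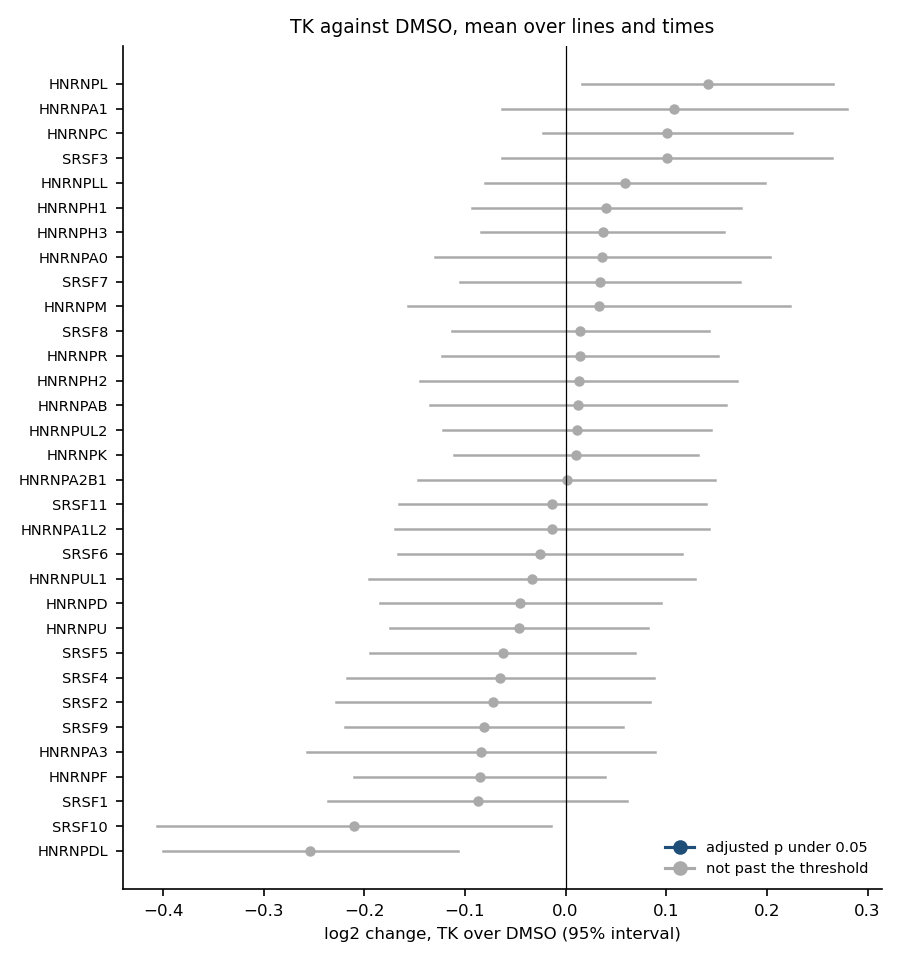
Log2 change from DMSO to TK for each member that passed the filter, averaged over both lines and both times, with 95% intervals from the edgeR fit. No member was called in this average, and the intervals of all 32 lay between -0.41 and 0.28.

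Over the average of lines and times 0 of 32 members were called by edgeR, with 3 at an unadjusted p under 0.05: HNRNPDL, HNRNPL (0.14, adjusted p 0.412) and SRSF10 (-0.21, adjusted p 0.443), an SR protein that represses splicing when its tail is dephosphorylated. The 95% intervals of all 32 members each lay between -0.41 and 0.28 on the log2 scale, taken gene by gene and not adjusted for their number. The members' median was 0.0059, against 0.0089 over all genes. The response to TK was also compared between the lines: 0 members differed at 8 h (0.0% of all genes, 0 at an unadjusted p under 0.05, 0 by DESeq2) and 0 at 18 h (0.0243% of all genes, 2 at an unadjusted p under 0.05, 0 by DESeq2). In U2932 at 18 h, setting TK against the 8 h and 18 h DMSO libraries jointly called 6 members, HNRNPA1, HNRNPA2B1, HNRNPL and HNRNPLL higher and SRSF1 and SRSF10 lower. That contrast mixes time with treatment, and it called 12.8% of all genes, 6.81% higher and 5.99% lower.

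Several hnRNP genes differed between the times. Averaged over both lines and both treatments, 7 of 32 members differed between 18 and 8 h (21.9%, against 2.38% of all genes): HNRNPLL, HNRNPA2B1, HNRNPA3, HNRNPDL, HNRNPD and HNRNPL rose (6 members, where 1.47% of all genes did) and HNRNPH1 fell (1, where 0.91% did). All 7 were among the 21 HNRNP genes, and 0 of 11 SRSF genes were called by edgeR, with 1 at an unadjusted p under 0.05 and SRSF1 called lower by DESeq2. The members' median log2 change was 0.08, against -0.01 over all genes. This average was added after the data were seen. The labels do not say whether libraries of the 2 times were prepared apart, so culture time and preparation cannot be told apart.

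HNRNPLL rose by 0.45 on the log2 scale (SE 0.07, edgeR adjusted p 0.00283). In U2932 it was at 39.1, 35.3 and 34.9 CPM with DMSO at 8 h and at 57.5 at 18 h, and with TK at 42.2 and 37.0 at 8 h and at 68.2, 57.4 and 62.8 at 18 h. In DOHH2 it was at 8.98, 9.53 and 8.39 CPM with DMSO at 8 h and at 10.5 and 10.6 at 18 h, and with TK at 9.21, 8.08 and 9.40 at 8 h and at 11.1, 9.97 and 10.6 at 18 h. Every 18 h library was above every 8 h library of its line and treatment.

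HNRNPA2B1, which also binds and sorts small RNAs, rose by 0.42 (SE 0.07, edgeR adjusted p 0.00686). With DMSO it was at 1547, 1489 and 1546 CPM at 8 h and 2068 and 1960 at 18 h in DOHH2, and at 1275, 1283 and 1282 against 1796 in U2932. With TK it was at 1714, 1302 and 1582 against 1859, 1849 and 1992 in DOHH2, and at 1327 and 1317 against 1533, 2132 and 1865 in U2932. The 18 h libraries were the higher ones in all 4 pairs of groups, without overlap. HNRNPL, at chr19:38836388-38852347 on the minus strand, rose by 0.33 (SE 0.06, adjusted p 0.00826). Its DMSO levels given above for 8 h compare with 329 and 332 CPM at 18 h in DOHH2 and 393 in U2932, and its TK levels with 414, 329 and 345 in DOHH2 and 431, 400 and 414 in U2932. Here too no pair of groups overlapped.

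HNRNPH1, which binds G tracts, moved the other way and fell by 0.35 (SE 0.06, edgeR adjusted p 0.00957). With DMSO it was at 397, 457 and 500 CPM at 8 h and at 356 and 381 at 18 h in DOHH2, and at 503, 592 and 542 against 382 in U2932. With TK it was at 426, 443 and 479 against 360, 347 and 400 in DOHH2, and at 521 and 555 against 463, 418 and 422 in U2932. All 18 h libraries were below the 8 h libraries of their pair. Its relatives were not called, with log2 changes of -0.02 for HNRNPH3, -0.04 for HNRNPH2 and -0.01 for HNRNPF.

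Among the 32 members, HNRNPA2B1, HNRNPL and HNRNPLL were higher and HNRNPH1 lower at 18 h without overlap in all 4 pairs of groups, which held for 0.31% of all genes in the first direction and 0.2% in the other, 0.51% in all. The 4 changes had the same sign, above 0 for 10 members and below 0 for 3, against 9.04% and 8.13% of all genes, 17.2% in all. HNRNPD, which binds AU-rich elements in messenger RNA and speeds decay, rose by 0.35 (SE 0.07, edgeR adjusted p 0.0110), from 444, 425 and 495 CPM at 8 h to 539 and 533 at 18 h in DOHH2 with DMSO and from 331, 348 and 347 to 473 in U2932. Its TK libraries overlapped in DOHH2, at 484, 418 and 457 against 592, 474 and 509, and did not in U2932, at 313 and 336 against 402, 514 and 433. HNRNPDL, also on chromosome 4, rose by 0.36 (SE 0.07, adjusted p 0.0114), with its values by library given above; this comparison and that of TK with DMSO share the DMSO libraries. HNRNPA3, of the A/B group, rose by 0.38 (SE 0.08, adjusted p 0.020), from 491, 540 and 578 CPM to 642 and 735 in DOHH2 with DMSO and from 730, 699 and 676 to 977 in U2932. With TK it was at 517, 510 and 618 against 514, 713 and 744 in DOHH2, where the groups overlapped, and at 603 and 681 against 730, 1004 and 867 in U2932, where they did not.

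**Figure D3:**
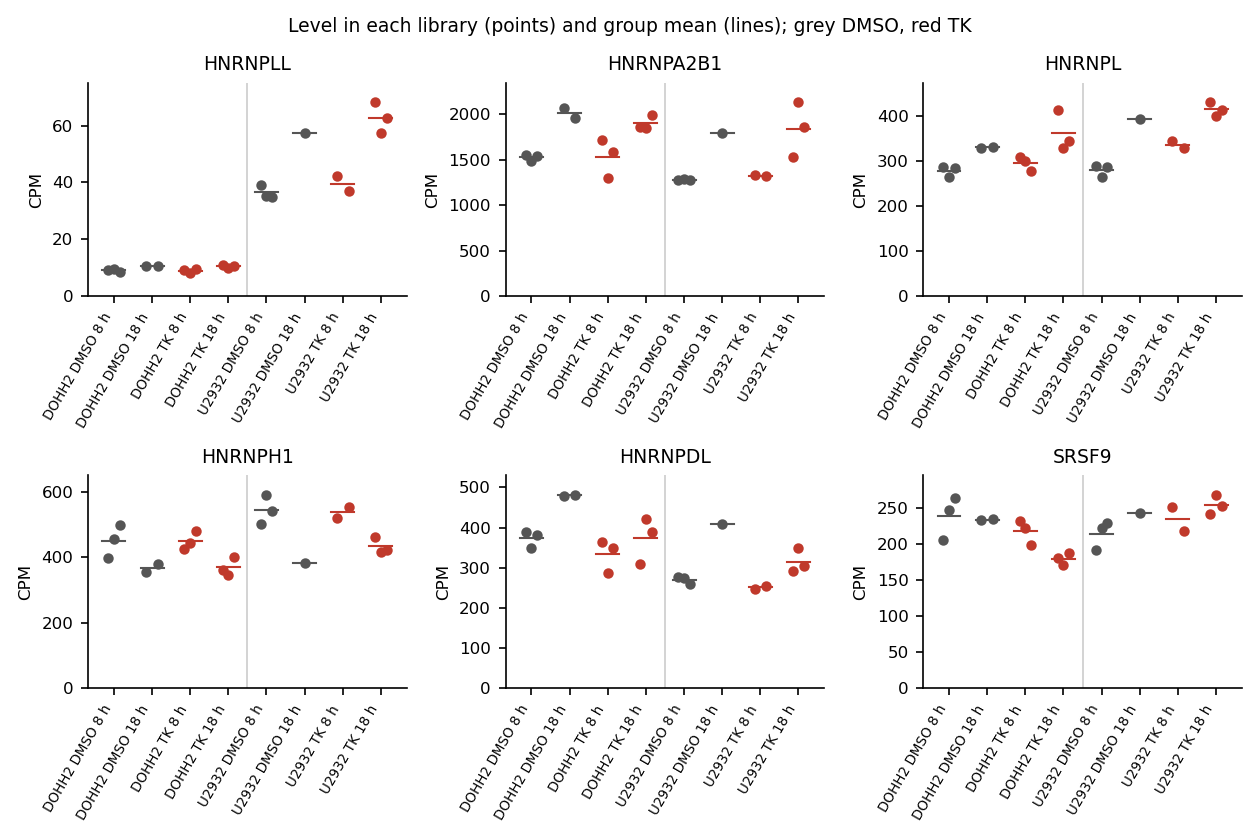
Level of 6 members in each of the 20 libraries, in CPM, by line, treatment and time, with a point for each library and a bar at the group mean. HNRNPLL, HNRNPA2B1 and HNRNPL stand higher and HNRNPH1 lower at 18 h in every pair of groups.

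The call of HNRNPA3 was lost without the third DMSO replicate of DOHH2 at 18 h (0.36, edgeR adjusted p 0.0626), and those of HNRNPA3 (0.35, 0.0544) and HNRNPDL (0.29, 0.0667) without the DMSO pair of U2932, which rests on 1 library at 18 h. HNRNPA1 had a change of 0.26 (adjusted p 0.0928) and SRSF1 of -0.26 (adjusted p 0.0597), and DESeq2 called both. SRSF1 was at 613, 663 and 559 CPM with DMSO at 8 h and 445 at 18 h in U2932, without overlap, and at 467, 450 and 466 against 456 and 426 in DOHH2, which overlapped. SRSF10, SRSF11, SRSF6 and SRSF3 had changes of -0.11, -0.13, -0.13 and -0.09, and SRSF7, SRSF8 and SRSF5 of 0.12, 0.12 and 0.08.

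Taken singly, the 4 pairs of groups gave fewer calls. Shares of all genes here are those of edgeR, and none was set beside the DESeq2 calls. The DMSO pair of U2932 has 1 library at 18 h. In U2932 with TK 1 member was called (0.218% of all genes), HNRNPLL at 0.67 (SE 0.13, edgeR adjusted p 0.0349). That call was lost without TK replicate 1 (0.60), 2 (0.73) or 3 (0.67) of 18 h or replicate 2 (0.57) of 8 h. With DMSO in U2932 0 members were called (0.0364% of all genes), with 9 at an unadjusted p under 0.05, and DESeq2 called HNRNPDL, HNRNPL and HNRNPLL. In DOHH2 0 were called with DMSO (0.631% of all genes, 5 at an unadjusted p under 0.05, 0 by DESeq2) and 0 with TK (1.57% of all genes, 6 and 0). Across the 32 members the changes over time correlated between pairs of groups at Pearson's r of 0.36 to 0.86, against -0.10 to 0.32 across 16478 genes. The 16478 genes include any above the filter of 0.288 CPM and were not matched to the members on level. The 4 pairs share no library, but members of 1 family can share reads, and these values are a description.

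**Figure D4:**
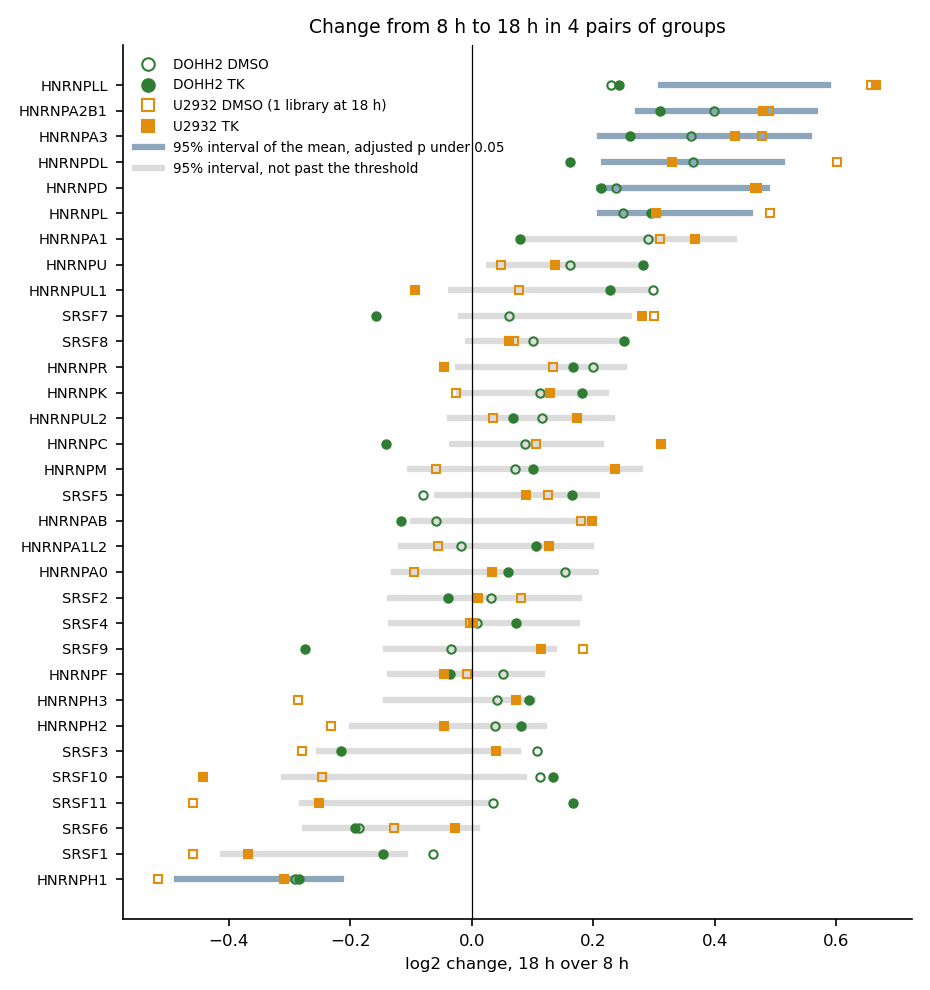
Log2 change from 8 to 18 h for each member that passed the filter, with a point for each of the 4 pairs of line and treatment and the average with its 95% interval. HNRNPLL (0.45) to HNRNPL (0.33) were called higher and HNRNPH1 (-0.35) lower in the average.

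Between the lines the members differed by less than most genes. With DMSO at 8 h, 17 of 32 members were called (53.1%, against 67.8% of all genes), 4 higher (33.0% of all genes) and 13 lower (34.9%) in the libraries labelled DOHH2. With TK at 18 h 9 were called (28.1%, against 69.2% of all genes), 2 higher (34.2% of all genes) and 7 lower (34.9%). The median size of the log2 difference was 0.26 and 0.22 over the members, against 0.82 and 0.84 over all genes. HNRNPLL was the only member beyond 1 on the log2 scale in either comparison, where 43.3% and 44.3% of all genes were.

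HNRNPLL was 4.06-fold lower in DOHH2 than in U2932 with DMSO at 8 h (log2 -2.02, SE 0.12, edgeR adjusted p 3.85e-12) and 5.97-fold lower with TK at 18 h (-2.58, SE 0.12, adjusted p 9.45e-14). Over all conditions the 11 DOHH2 libraries spanned 8.08 to 11.1 CPM with a median of 9.53, and the 9 U2932 libraries 34.9 to 68.2 with a median of 42.2. Its relative HNRNPL was not called in either comparison, at -0.01 and -0.19. HNRNPA1L2 was lower in DOHH2 as well, at 8.36 to 11.0 CPM with a median of 9.55 against 15.5 to 17.9 with a median of 17.6 (log2 -0.79 and -0.86), while its parent HNRNPA1 was at -0.04 and -0.26 and was not called. HNRNPH3 was the member higher in DOHH2 without overlap, at 177 to 231 CPM with a median of 215 against 123 to 159 with a median of 150 (0.54 and 0.47). These 3 were the members whose lines did not overlap over all libraries, 2 lower (24.1% of all genes) and 1 higher (22.7%), or 46.8% of all genes in either direction.

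**Figure D5:**
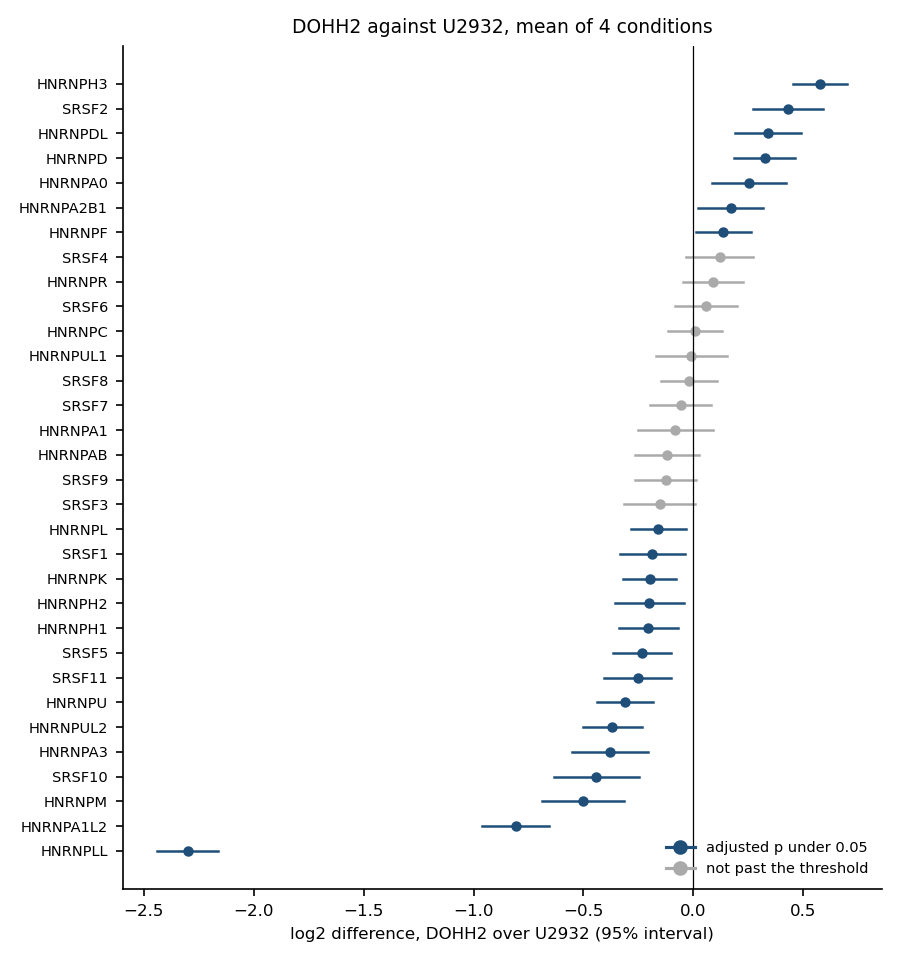
Log2 difference between DOHH2 and U2932 for each member that passed the filter, averaged over the 4 conditions of treatment and time, with 95% intervals. HNRNPLL stands apart at -2.30, and the other members lie within 1 of 0.

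Of the SR genes SRSF2, which binds exonic enhancers in many transcripts, was higher in DOHH2 in both comparisons (0.45 and 0.42). Its libraries spanned 419 to 570 CPM with a median of 547 in DOHH2 and 346 to 428 with a median of 404 in U2932, so the lines overlapped through 1 DOHH2 library, the first TK replicate of 18 h at 419. SRSF10 was lower with DMSO at 8 h (-0.67), at 281, 267 and 264 CPM against 452, 453 and 387, and so were SRSF11 (-0.54), SRSF1 (-0.41) and SRSF3 (-0.33). With TK at 18 h SRSF9 (-0.50) and SRSF7 (-0.35) were lower instead, and SRSF10, SRSF11 and SRSF1 were at -0.10, -0.01 and -0.05. SRSF4, SRSF5, SRSF6 and SRSF8 were called in neither.

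Among the other hnRNP genes HNRNPM (-0.46 and -0.67), HNRNPUL2 (-0.44 and -0.39) and HNRNPA3 (-0.39 and -0.40) were lower in DOHH2 in both comparisons. HNRNPM was at 430, 519 and 597 CPM against 625, 705 and 801 with DMSO at 8 h, without overlap. HNRNPDL (0.47) and HNRNPD (0.41) were called higher with DMSO at 8 h, and at 18 h with TK they were at 0.24 and 0.22 without a call. HNRNPU, a nuclear scaffold protein (-0.40), HNRNPH2 (-0.37), HNRNPH1 (-0.27) and HNRNPK, which binds cytosine-rich RNA (-0.25), were called lower at 8 h. Together 7 members were called with the same sign in both comparisons, 41.2% of the 17 and 77.8% of the 9. Over all genes 54.2% were called so, 79.8% and 78.3% of those called in each comparison. Each comparison has its own libraries.

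Without each of the libraries in turn, 13 to 15 members were called with DMSO at 8 h. HNRNPM was lost without the first DMSO replicate of DOHH2 (-0.35) or replicate 3 of U2932 (-0.37), and HNRNPA3 without the first of either line (-0.33 and -0.36). HNRNPH2 was lost without the first of U2932 (-0.31). HNRNPH1 was lost without replicate 1 (-0.19) or 2 (-0.28) of DOHH2 or replicate 2 (-0.23) or 3 (-0.28) of U2932. HNRNPK was lost without replicate 1 (-0.22) or 3 (-0.27) of DOHH2 or replicate 2 (-0.24) or 3 (-0.25) of U2932. SRSF3 was lost without replicate 2 (-0.29) or 3 (-0.29) of DOHH2 or any of U2932 (-0.34 to -0.33). With TK at 18 h HNRNPA3 was lost without the first TK replicate of DOHH2 (-0.25) or the second of U2932 (-0.29). RLE scaling called 15 members there, 2 higher and 13 lower, and DESeq2 17. No share over all genes was set beside these counts, so they cannot be compared with the 69.2% of the main fit. Averaged over the 4 conditions 21 members were called (65.6%, against 79.9% of all genes), 7 higher (39.3% of all genes) and 14 lower (40.5%) in DOHH2. HNRNPLL was at -2.30 (SE 0.07), a 4.93-fold difference. HNRNPA2B1, called higher at 0.17, lost its call in 13 of 26 alternatives.

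Whether the line difference itself moved between DMSO at 8 h and TK at 18 h was tested as a contrast of the 4 groups. SRSF9 (-0.66, SE 0.16, edgeR adjusted p 0.0146) and HNRNPLL (-0.55, SE 0.16, adjusted p 0.0306) were the 2 of 32 members called (12.4% of all genes). SRSF9 was at 206, 248 and 264 CPM in DOHH2 and 191, 223 and 229 in U2932 with DMSO at 8 h, which overlapped, and at 181, 170 and 188 against 241, 268 and 252 with TK at 18 h, which did not. This contrast joins time and treatment and uses the same libraries as both line comparisons, and SRSF9 shares 46.2% of its exon length with GATC. For the change from 8 to 18 h with TK alone, 0 of 32 members differed between the lines by edgeR (6.69% of all genes), with 6 at an unadjusted p under 0.05. DESeq2 called HNRNPC and SRSF7, with no share over all genes set beside these calls. The call of HNRNPLL was lost without TK replicate 1 (-0.49) or 3 (-0.57) of U2932, DMSO replicate 2 (-0.56) or 3 (-0.52) of U2932, TK replicate 2 (-0.52) or 3 (-0.56) of DOHH2, or DMSO replicate 2 (-0.51) of DOHH2, while SRSF9 stayed called.

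The proteins that work with these factors were followed as 5 lists: 16 SR-related proteins, 11 SR kinases and import factors, 17 hnRNP proteins with other symbols, 34 core spliceosome proteins and 15 genes of nonsense-mediated decay, the pathway that removes the members' transcripts with early stops. With TK, 0 genes of any list were called by edgeR in the 4 comparisons or their average, with medians of -0.04 to 0.12. CLK2, a kinase that phosphorylates SR proteins, had an average log2 change of -0.28 with TK (adjusted p 0.0963), and U2AF1, which recognises the 3′ splice site, of -0.39 (adjusted p 0.147). Over time 2 of 34 core spliceosome genes were called in the average, where 2.38% of all genes were: SNRPA1 (0.37) and SNRPA (0.33), proteins of the U2 and U1 particles. The other 4 lists, of 11 to 17 genes, had 0 calls by edgeR in that average, and no list was compared with another. In single pairs of groups, CELF1, of the other hnRNP proteins, was called lower at 18 h with TK in U2932 (-0.66, edgeR adjusted p 0.0225), where 0.218% of all genes were called. SNRPB, of the core spliceosome, was called lower at 18 h with TK in DOHH2 (-0.53, edgeR adjusted p 0.0314), where 1.57% of all genes were called.

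Between the lines the lists had calls in both directions with DMSO at 8 h, where 67.8% of all genes were called, 33.0% higher and 34.9% lower. For the SR-related proteins 4 of 16 were higher and 5 lower in DOHH2, and for the kinases and import factors 4 and 4 of 11, with the kinase SRPK2 at 1.41, its libraries spanning 65.7 to 68.3 CPM in DOHH2 and 23.9 to 26.9 in U2932. For the other hnRNP proteins 3 of 17 were higher and 6 lower, and these held the widest gaps of the 5 lists. PCBP3, a poly(C)-binding protein, had no counts in the 3 DOHH2 libraries and was at 18.9 to 21.2 CPM in U2932. CELF2, which acts on splicing in lymphocytes, was at 108 to 136 CPM in DOHH2 and 0.683 to 1.03 in U2932 (7.07), and PCBP4, a relative of PCBP3, at 12.4 to 14.9 and 0.888 to 1.29 (3.63). For the core spliceosome 4 of 34 were higher and 9 lower, with PRPF3 at -2.64, and for nonsense-mediated decay 3 and 3 of 15, with the exon junction protein RBM8A at -1.28. With TK at 18 h, where 69.2% of all genes were called, 34.2% higher and 34.9% lower, the core spliceosome had 25 of 34. Of these 4 were higher and 21 lower, with a list median of -0.52, against -0.0032 over all genes. With DMSO at 8 h that list median was -0.083, against -0.033 over all genes. The DOHH2 libraries with TK at 18 h include the library with 56.6% of its reads not aligned uniquely. With TK at 18 h the other 4 lists had 5 and 3, 4 and 1, 5 and 3, and 4 and 4, higher and lower in the order given.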

How the data were processed

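Polyadenylated RNA of 20 libraries from DOHH2 and U2932 cells was sequenced after DNase-treated RNeasy extraction, per the labels' protocols. The authors deposited raw read counts per gene, and STAR, HTSeq, edgeR and GRCh38.p10 are named in the submitters' processing notes. The sources used here give no version, strand setting or annotation release. Rows for reads outside genes were left out of library sizes, 32.7% to 62.7% of each library's total.

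Groups followed the labels. All 20 libraries entered 1 fit with a mean for each of the 8 groups: edgeR 4.0.16 (R 4.3.3, limma 3.58.1), trimmed-mean (TMM) scaling, robust quasi-likelihood F tests, Benjamini-Hochberg over the 16478 genes kept of 34160 with any count, threshold 0.05. Genes needed at least 10 counts of the median library in 3 libraries. CPM uses the scaled library sizes, and 95% intervals come from the standard errors. The fit was tested on simulated counts. Alternatives were RLE scaling, DESeq2 1.42.0, each line alone, the count filter dropped or raised to 50, a replicate block and leaving out each library. Coordinates and lengths are from GENCODE v29 (GRCh38). Floors and intervals cover counting or library spread only, since no molecular identifiers are described. The members and lists were chosen with earlier results of these data known. Values by library were chosen from up to 6 called members per direction in a comparison, or the 3 with the smallest p. Not all of those are printed. The same-numbered replicates did not deviate together in every pair, so no pairing was used.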

Additional observations from a re-analysis of the deposited data

Results flagged for a closer look

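The difference between DOHH2 and U2932 moved between DMSO at 8 h and TK at 18 h for 2 of 32 members, by a test of that difference in edgeR that called 12.4% of all genes. For SRSF9 the log2 value was -0.66 (SE 0.16, adjusted p 0.0146): the lines overlapped with DMSO at 8 h, and all 3 DOHH2 libraries were below all 3 U2932 libraries with TK at 18 h. For HNRNPLL it was -0.55 (SE 0.16, adjusted p 0.0306), DOHH2 being lower at both times and by more at 18 h. SRSF9 kept its call in all 18 alternatives run, at -0.75 to -0.58, and HNRNPLL lost it in 8 of 18. Time and treatment both differ in this contrast and cannot be told apart.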

How the results depend on the processing

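Of the counts of members called, 228 alternatives stayed within 1.5 times the value reported and 29 did not; the cause was not tested. With DMSO of both times as control in U2932 at 18 h, 6 members were called. Between the lines with TK at 18 h, RLE scaling gave 15 and DESeq2 17. Over time with TK in U2932, no filter gave 2, that line alone 4, DESeq2 4, and leaving out 1 library 0 to 1. Over time with TK in DOHH2, leaving out 1 library gave 0 to 1, and with DMSO in U2932 no filter gave 1 and DESeq2 3. For the average TK change, DESeq2 gave 1, as did leaving out the first TK replicate of DOHH2 at both times. For the change over time with TK between the lines, DESeq2 gave 2 and leaving out 1 library 0 to 2. For the line difference between DMSO at 8 h and TK at 18 h, no filter gave 1, the filter at 50 counts 4, DESeq2 4, leaving out 1 library 1 to 5, and leaving out the first TK replicate of DOHH2 at both times 6. The average over time kept 5 to 9 calls in all its alternatives. Of the alternatives, only that with DMSO of both times as control had a share over all genes set beside its calls.

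Of the values of single members, 1608 kept direction and side of the threshold, 33 lost a call, 14 gained one and 10 reversed, none of those a called value. Leaving out 1 library, SRSF5 in DOHH2 ranged from -0.18 to 0.015 over time with DMSO and from -0.027 to 0.17 with TK at 18 h, the reversed values being those without the first DMSO replicate of 18 h. HNRNPA1 with TK in DOHH2 at 8 h ranged from -0.030, without the first TK replicate, to 0.31, and was -0.031 without that replicate at both times. HNRNPDL in U2932 with DMSO of both times was 0.072. With TK in U2932 at 8 h SRSF1 ranged from -0.34 to 0.0040, SRSF11 from -0.36 to 0.022 and HNRNPU from -0.26 to 0.0032, each reversed without the first TK replicate. HNRNPUL1 in the difference of TK responses at 18 h ranged from -0.034, without the first TK replicate of DOHH2, to 0.32, and was -0.035 without that replicate at both times.

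With the replicate block, 17 and 9 members were called between the lines as without it, 8 against 7 in the average over time, 19 against 21 in the average between lines, 1 over time with TK in U2932, 2 in the line difference and 0 elsewhere. Deviations of same-numbered libraries correlated at -0.10 to 0.64. With so few libraries a group, these values cannot settle whether the numbers mark pairs. The fit without the first TK replicate of DOHH2 at both times, the averages, the comparisons of line and time together, and the DMSO comparison over time in U2932 were added after seeing the data. With 1 to 3 libraries a group small changes were not detectable in a single comparison, and gene counts do not show which exons were used.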
